A study of Arabidopsis thaliana with 6 samples.

Results

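Root RNA from Arabidopsis thaliana plants that received 50 ppm lead was compared with root RNA from plants that received 25 ppm lead. These are 2 of the 6 arrays of the series, with 1 array per group, and the root array without added lead served as a reference level only. Probe sets were taken from the whole array, apart from 50 controls, and those with a signal of at least 25 on 1 or both lead arrays were kept, which left 4629 of 8247. Signals under 8 were set to 8 before log2 was taken, and a probe set counted as apart when its signals differed at least 2-fold. The plants were of the accession Col-4 (stock N933) and grew in hydroponic culture. Lead was supplied as its nitrate at a pair of nutrient changes a week apart, between complete rosette growth and the first visible flower bud (stages 3.90 to 5.10). Roots were taken at growth stage 6, and the labels of the control array name no lead treatment. Neither the plants' age in days nor the number of plants behind an RNA sample is given in the sources used here.

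Lead is not a nutrient, and much of what a root takes up is known to stay bound in the cell walls of the root. Lead ions disturb calcium signalling and the balance of reactive oxygen species. Roots under metal stress are known to deposit lignin, to strengthen the wall with class III peroxidases, and to make many of the proteins that also answer fungal attack, among them chitinases, glucanases and lectins.

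Signals had been brought to a like level on every array, with trimmed means between 99.1 and 99.8. The scan of the 50 ppm root array had an average background of 192.65, against 97.80 on the 25 ppm root array and 86.48 on the control root array, so strong signals are described first. The ratio of 3′ to 5′ control signals was 0.826 at 25 ppm and 1.16 at 50 ppm for GAPDH, and 2.06 and 2.00 for ubiquitin. Of 12 root markers, 4 had a named probe set, and these gave 1437 to 2974 on the lead root arrays and at most 8.4 on any leaf array. The 16 probe sets of 12 photosynthesis genes summed to 382.8 at 25 ppm and 291.2 at 50 ppm in roots, against 41533 to 57310 on the leaf arrays, and the signals of PRK and both PSBW probe sets were under 8 on both lead root arrays. The material therefore matched its root label by these markers. With 1 array per group there is no replicate and no test, and every statement below rests on size. In bulk roots, fewer cells of a type and less RNA per cell cannot be told apart.

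More probe sets were high at 50 ppm than at 25 ppm. Of the 4629 kept, 723 (15.6%) were at least 2-fold apart. Of these, 533 (11.5% of those kept) were higher at 50 ppm and 190 (4.1%) were lower, so 73.7% of the probe sets apart were higher. The median log2 difference over all kept probe sets was 0.00. The split depended on the scaling: 61.0% were higher after quantile normalization of the 3 root arrays, which moved the median of all kept probe sets to -0.11, and 62.4% after a loess fit.

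The excess of higher probe sets was seen at weak and moderate signals and was small at the strongest. Between signals of 100 and 200, 124 of 878 probe sets were higher and 32 were lower. At 500 and over, 42 of 642 were higher and 36 were lower, and the median log2 difference in this class was -0.26. The strongest signals were thus on the whole somewhat lower on the 50 ppm array, the array with the high background. The part of the background in this pattern was not tested.

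**Figure D1:**
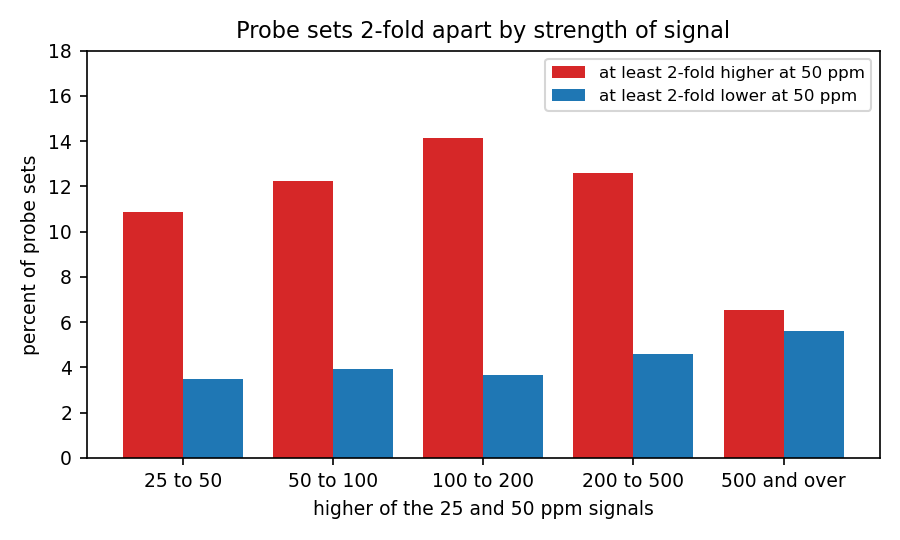
Bars give the percentage of kept probe sets (vertical axis) that were at least 2-fold higher (red) or lower (blue) at 50 than at 25 ppm lead, in 5 classes of the higher of both signals (horizontal axis). The percentage higher was 14.1 at signals of 100 to 200 and 6.54 at 500 and over, where 5.61 percent were lower.

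The control array placed these differences. For 258 of the 533 higher probe sets the level without lead lay within 2-fold of the 25 ppm level and at least 2-fold from the 50 ppm level, so 50 ppm stood apart. For 94 it was the 25 ppm array that stood apart, below both others. The level without lead was within 2-fold of both lead arrays for 109. Among the 190 lower probe sets the corresponding counts were 79, 41 and 59. Signals ran in 1 order from 0 through 25 to 50 ppm for 194 of the 533 higher and for 46 of the 190 lower probe sets. This order goes by sign alone, and 0 and 25 ppm signals both under 8 count as equal. For the 258 and the 109 higher probe sets above, the control was within 2-fold of 25 ppm. Their order of 0 and 25 ppm thus rests on small differences, and the counts do not settle how many were steps in 1 direction.

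A single gene was named for 1997 of the kept probe sets, which covered 1895 genes. By gene, 201 (10.6%) were at least 2-fold higher at 50 ppm and 88 (4.64%) were lower, with a median log2 difference of 0.00. These shares are the background against which the families below are read. A probe set that passed the filter on 1 array alone tends to be apart by the choice of filter: this holds for 235 of the 533 higher and 63 of the 190 lower probe sets. Families were put together by locus.

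**Figure D2:**
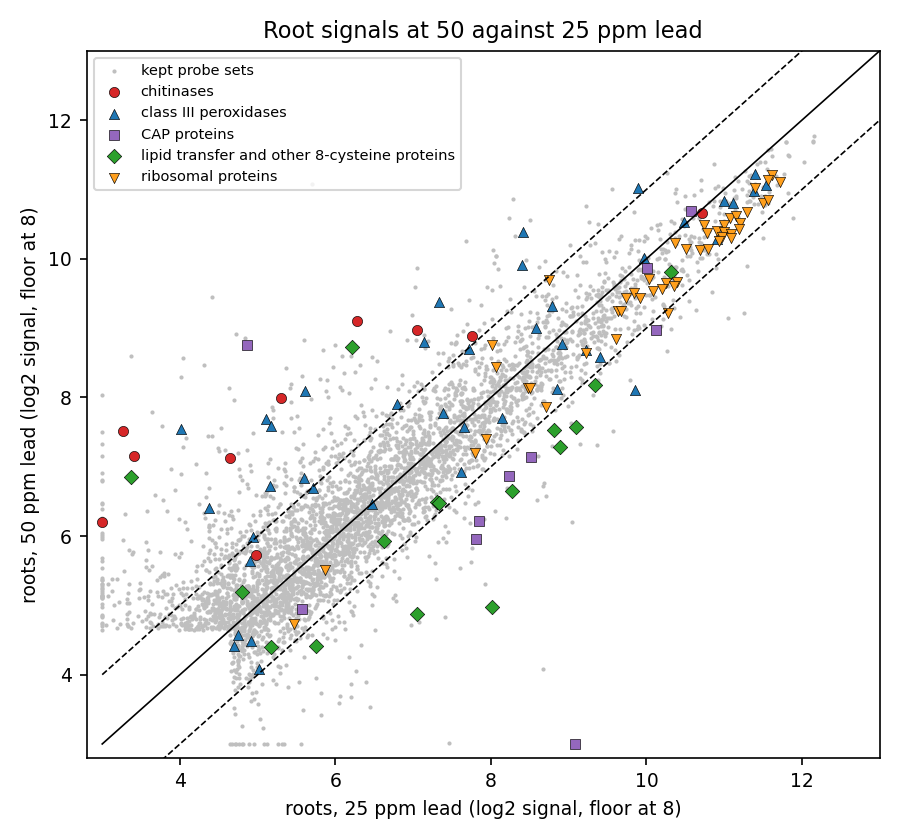
Each grey point is 1 of the 4629 kept probe sets, with its log2 signal in roots at 25 ppm (horizontal) and 50 ppm (vertical), after signals under 8 were set to 8. Dashed lines mark 2-fold. Of the coloured families, chitinases lie mostly above the upper line, most CAP and 8-cysteine proteins below the diagonal, and ribosomal proteins between the lines and mostly under the diagonal.

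Chitinases were mostly higher at 50 ppm. These enzymes cut chitin, a polymer of fungal walls, and are classic products of the defence response. Of 9 kept chitinase genes (16 have a named probe set), 7 were at least 2-fold higher and 0 lower, with a median log2 difference of 2.65. Of the 7, 3 passed the filter through the 50 ppm array alone. The median lay between 2.56 and 2.74 under quantile, loess and median scaling, and was 2.20 with the floor at 16 and 2.26 with an offset of 16. Without the filter it was 0.38 over all 16 genes, of which 7 were higher and 1 lower.

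Members of both chitinase classes took part. In the class of glycosyl hydrolase family 18, AT4G19750 gave 36.8, 9.6 and 182.7 at 0, 25 and 50 ppm, a 19.0-fold difference between the lead arrays. Its neighbour AT4G19760 gave 52.2, 10.6 and 143.1, which is 13.5-fold. AT4G19720, a weaker signal, gave 13.4, under 8 and 73.6, at least 9.20-fold. All of these were lowest at 25 ppm and highest at 50 ppm. ChiC, of the same class, instead was higher at each dose, with signals under 8, then 39.3 and 254.8, and was 6.48-fold higher at 50 than at 25 ppm.

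In the class of family 19, the gene AT2G43590 was read by a pair of probe sets that gave 201.0, 77.7 and 548.3 in one case and 51.8, 25.1 and 140.2 in the other. The differences between the lead arrays were 7.06-fold and 5.59-fold, with 25 ppm lowest in both. AT4G01700 gave 106.9, 132.5 and 499.8, 3.77-fold. CHI gave 55.5, 216.3 and 471.5, 2.18-fold, and was already high at 25 ppm. The family was not uniform, since AT2G43610 gave 1191, 1680 and 1625, with the doses 1.03-fold apart, and AT2G43620 gave 19.6, 31.5 and 53.1.

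Other antifungal and storage-like defence proteins were mixed. The beta-1,3-glucanases, which cut callose and fungal glucans, had 2 of 6 kept genes higher and 0 lower. AT4G16260 gave 577.1, 613.1 and 1485, a 2.42-fold difference, so only the 50 ppm array was high. AT4G34480 gave 21.5, 18.5 and 44.9, passed the filter through the 50 ppm array alone, and was within 2-fold with an offset of 16. Of 7 thaumatin-like genes, 0 passed 2-fold. OSM34, an osmotin, came closest with 188.9, 1231 and 2424, so that most of its distance from the control was already present at 25 ppm.

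Small cysteine-rich peptides were split between a few large differences and many small ones. In the group of proteinase inhibitors, defensins and thionin, 2 of 8 kept genes were higher and 0 lower. The 2 higher genes passed the filter through the 50 ppm array alone. The defensin PDF2.1 gave 136.7, 16.9 and 170.4, 10.1-fold, and it was the 25 ppm array that was low. AT2G43530, a defensin-like gene, gave 10.4, under 8 and 112.4, at least 14.1-fold, with stronger signals in leaves (763.2 and 1229 at 25 and 50 ppm). LCR68 and LCR69, also defensin-like, differed by 1.06-fold each, at 1846 and 1738 for LCR68 and 1634 and 1539 for LCR69 at 25 and 50 ppm.

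Jacalin and other mannose-binding lectins bind sugars, and some act in defence. Of 13 kept genes, 3 were higher and 2 lower, and 2 of the 3 higher ones passed the filter through the 50 ppm array alone. AT1G52130 gave 8.6, under 8 and 260.9, at least 32.6-fold, and AT1G52120 gave 12.4, under 8 and 84.0, at least 10.5-fold. Both were thus near the floor except at 50 ppm. AT1G60095 was measured by a pair of probe sets that disagreed on the rule, at 4.05-fold (42.8, 46.4 and 188.0) and 1.54-fold (14.5, 27.0 and 41.5). In the same run of loci on chromosome 1, AT1G52050 gave 495.2, 565.3 and 160.4 and AT1G52070 gave 248.7, 440.6 and 157.0. These relatives were 3.52-fold and 2.81-fold lower at 50 ppm, so the direction differed within 1 cluster of lectin genes.

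Dirigent proteins guide the coupling of phenolic radicals into lignans and lignin. AT4G11190 had the largest difference of the named genes measured above the floor on both lead arrays, with 47.5, 21.2 and 699.8 at 0, 25 and 50 ppm, or 33.0-fold. AT4G11210 gave 37.0, under 8 and 180.9, at least 22.6-fold. These 2 genes passed the filter through the 50 ppm array alone, and of 6 dirigent genes with a named probe set 4 were kept. The other 2 of the 4 kept dirigent genes were within 2-fold: AT2G39430 gave 419.9, 173.9 and 277.6, and AT4G13580 gave 145.1, 51.0 and 84.3. All 4 were lowest at 25 ppm.

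**Figure D3:**
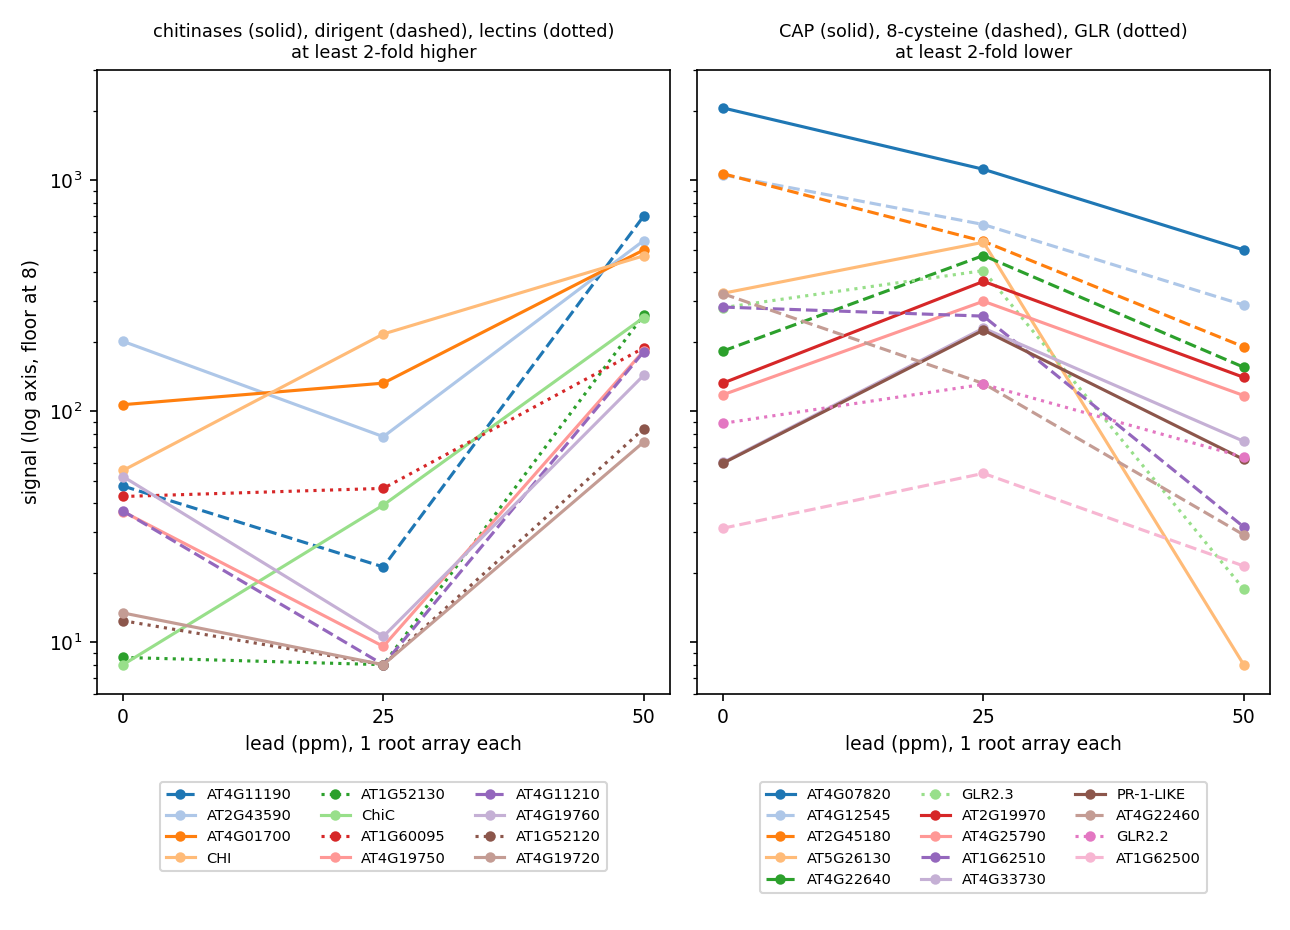
Signals of single genes on the root arrays at 0, 25 and 50 ppm lead (horizontal axis) on a log axis, with signals under 8 drawn at 8 and 1 probe set per gene. The left panel shows the 12 chitinase, dirigent and lectin genes that were at least 2-fold higher at 50 than at 25 ppm, several of them lowest at 25 ppm, and the right panel the 14 CAP, 8-cysteine and GLR genes that were at least 2-fold lower, several of them highest at 25 ppm.

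Class III peroxidases use hydrogen peroxide to cross-link wall phenolics and can also release reactive oxygen. Of 37 kept genes (44 have a named probe set), 13 were higher at 50 ppm and 1 lower. The median log2 difference was 0.04, so the family held a group of high members beside many that differed little. Of the 13, 2 passed the filter through the 50 ppm array alone, AT5G06730 and AT5G64120. The counts were 11 higher and 2 lower after quantile normalization, 12 and 2 after loess, and 10 and 1 with an offset of 16. For 7 of the 13 the control lay near 25 ppm only, and for 4 near 50 ppm only.

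Several of the higher peroxidases had strong signals. AT2G38390 gave 869.6, 951.4 and 2069, 2.18-fold, and AT4G36430 gave 149.7, 338.0 and 957.1, 2.83-fold. AT3G21770 gave 1098, 341.6 and 1341, 3.92-fold, and its second probe set gave 187.9, 36.1 and 192.9, 5.34-fold. For AT3G21770 the 25 ppm array was the low one, and the level at 50 ppm was close to that without lead.

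The same shape was seen for AT5G66390 (PRX72), known for its part in lignification, at 412.1, 140.4 and 446.9 (3.18-fold), and for AT5G39580 at 245.2, 48.9 and 273.1 (5.58-fold). In contrast AT5G06730 gave 21.6, 16.2 and 187.5, 11.6-fold. AT2G18150 gave 120.1, 161.1 and 662.9, 4.11-fold. AT1G71695 gave 55.9, 34.4 and 205.3, 5.97-fold. These last 3 stood out at 50 ppm alone.

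The lower peroxidase was AT4G26010 (PRX44), a gene of root hair cells, with 561.6, 927.6 and 276.5, 3.35-fold lower at 50 ppm. AT3G49960 (PRX35) gave 53.2, 196.8 and 120.8 and stayed within 2-fold. The strongest members were also within 2-fold, among them AT3G32980 at 2974 and 2146 and AT5G64100 at 2660 and 2024 at 25 and 50 ppm.

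Further genes, some of them of phenolic and wall metabolism, were apart. CCOAMT, a methyltransferase of the lignin precursor pathway, gave 49.8, 13.6 and 192.9, 14.2-fold. ARPN, a plantacyanin (a blue copper protein of the wall), had probe sets at 57.9, 68.1 and 387.3 (5.69-fold) and at 48.9, 51.4 and 250.6 (4.88-fold). A further, weaker ARPN probe set gave 19.1, 16.8 and 73.4 (4.37-fold), so that all 3 were high at 50 ppm only. The neighbouring loci AT2G30670, a tropinone reductase-like gene, and AT2G30660 had signals under 8 at 0 and 25 ppm and gave 142.7 (at least 17.8-fold) and 76.7 (at least 9.59-fold) at 50 ppm.

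Pectin enzymes and their inhibitors, which set the stiffness of the pectin gel, had 3 of 18 kept genes higher and 3 lower. AT5G62350, an inhibitor-like gene, gave 340.5, 392.4 and 945.3, 2.41-fold. AT1G23205, also inhibitor-like, gave 151.8, 156.8 and 41.5, 3.78-fold lower. Among expansins and xyloglucan enzymes, which loosen the wall during growth, 2 of 8 were higher and 2 lower. EXPA15 gave 54.4, 74.7 and 150.2, 2.01-fold, while XTH26 gave 31.4, 96.6 and 42.8, 2.26-fold lower. The count of higher expansins and xyloglucan enzymes was 1 after quantile and trimmed mean scaling and 0 after loess and with an offset of 16, and that of pectin genes was 1 after loess and with the offset. Of the 3 higher and 3 lower pectin genes, 2 each way passed the filter through 1 array alone. Among expansins and xyloglucan enzymes this held for 1 gene each way. These families had no common direction.

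Some enzymes that modify small molecules were higher. UDP-glycosyltransferases attach sugars to hormones, phenolics and foreign compounds, and 6 of 22 kept genes were higher and 0 lower, with a median log2 difference of 0.64 (0.43 after loess). Of these 6, 4 passed the filter through the 50 ppm array alone. The count was 4 of 22 after loess and 3 of 22 with an offset of 16, while 10.6% of all named genes were higher. AT3G46700 gave 14.6, 22.4 and 154.3, 6.89-fold. UGT85A2 gave 84.2, 91.7 and 213.4, 2.33-fold. UGT72E1, which glucosylates lignin precursors, gave 401.0, 57.1 and 127.1, so its level at 50 ppm was still below that without lead. The strongest member, UGT71C2, gave 401.2, 478.9 and 255.3 and was within 2-fold.

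The list held only 3 cytochrome P450 genes, each of the CYP71B group, and all 3 were higher. Of these, CYP71B28 passed the filter through the 50 ppm array alone. CYP71B6 gave 133.7, 187.7 and 439.1, 2.34-fold, CYP71B29 gave 110.3, 57.5 and 153.1, 2.66-fold, and CYP71B28 gave 19.3, 19.6 and 58.0, 2.96-fold. Beta-glucosidases release active compounds from glucosides, and 3 of 4 were higher. BGLU25 gave 559.1, 667.3 and 1448, 2.17-fold, and BGLU15 gave 100.1, 67.8 and 276.6, 4.08-fold. BGLU21, with 2604 and 2367 at 25 and 50 ppm, was within 2-fold.

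Thiols bind metals in plant cells and are made from assimilated sulfate. Of 12 kept thiol and antioxidant genes, 1 was higher and 0 lower, a share near that over all named genes, with a median log2 difference of 0.13. The higher one was MSRB9, which repairs oxidised methionine, at 65.8, 56.9 and 114.3 (2.01-fold), and it was within 2-fold under trimmed mean, quantile and loess scaling and with an offset of 16. Of 4 genes of sulfate assimilation, 2 were higher and 0 lower. APS3, an ATP sulfurylase, gave 76.2, 102.2 and 213.5, 2.09-fold, and OASA2, of the cysteine synthase family, gave 47.8, 24.8 and 53.0, 2.14-fold. OASA2 passed the filter through the 50 ppm array alone, and both genes were within 2-fold after quantile normalization and with the offset. APS4 gave 365.8, 826.2 and 933.3, so its distance from the control was already there at 25 ppm. GSTF3, a glutathione transferase outside these lists, gave 603.5, 272.9 and 921.1, 3.38-fold. By its name, the GSTF3 probe set holds probes that may also match related genes.

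Of 6 kept genes for metal carriers and metal-binding proteins, 0 were higher and 1 was lower, which at this number differs little from the shares over all named genes. The lower one, AT4G08570, a heavy-metal-associated domain protein, gave 31.9, 41.9 and 14.1, 2.97-fold lower, and was within 2-fold with an offset of 16. The zinc transporters ZIP6 (103.3, 114.2 and 81.3) and ZIP9 (27.5, 76.5 and 71.7) and the manganese carrier MTP11 (92.6, 107.8 and 75.8) were within 2-fold. This small set leaves out most known metal transporters of the plant, for which no named probe set was used here.

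Among other transporters, 4 of 5 genes of the NPF family, carriers of nitrate, peptides and hormones, were higher (3 of 4 after quantile normalization, and 2 of 5 after loess and 1 of 5 with an offset of 16). Their signals were weak: AT2G26690 gave 63.6, 47.1 and 111.6, 2.37-fold, and the other 3 were under 70 at 50 ppm. Of the 4 higher NPF genes, 2 passed the filter through the 50 ppm array alone. Of 6 genes for glutamate receptor-like channels, which pass calcium, 2 were kept. Both were lower, beside 4.64% of all named genes, and 1 of the 2 passed the filter through the 25 ppm array alone. GLR2.3 gave 281.5, 407.0 and 17, a 23.9-fold difference, with 50 ppm far below both other arrays. Its neighbour GLR2.2 gave 88.8, 131.0 and 63.4, 2.07-fold, and was within 2-fold after median scaling and with the offset.

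CAP proteins, the family of the defence marker PR-1, were mostly lower at 50 ppm. Of 9 kept genes, 6 were lower and 1 higher, with a median log2 difference of -1.36 (-1.45 after quantile and -1.27 after median scaling). Without the filter, 5 of 10 were lower and 1 higher, with a median of -0.98. In AT5G26130, the gene with the largest difference of all named ones, signals were 324.7, 539.9 and under 8, at least 67.5-fold lower. It passed the filter through the 25 ppm array alone. In the stretch of 46 genes around it on chromosome 5, 4 of 10 kept genes were lower and 0 higher. Over all named genes, 4.64% were lower and 10.6% higher. The 4 include AT5G26130 itself, AT5G26300 (6.15-fold) and AT5G26320 (7.13-fold). The stretch was chosen after these values were seen, so its count is no test of a cluster. The labels give the same stock for both arrays, and whether the plants differed in this stretch of the genome was not tested. AT4G07820 had the strongest signals of the 6 and was lower at each higher dose, with 2060, 1118 and 500, 2.23-fold between the lead arrays (log2 -0.97 after loess, just within 2-fold).

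The other 4 lower CAP genes shared 1 shape. PR-1-LIKE gave 59.7, 224.9 and 61.9, 3.63-fold, and AT4G33730 gave 60.1, 229.3 and 74.2, 3.09-fold. AT2G19970 gave 132.7, 365.5 and 140.4, 2.60-fold, and AT4G25790 gave 118.1, 299.8 and 117.1, 2.56-fold. In each the 25 ppm array was high and the 50 ppm level lay near the control. The exception in the family was AT4G33710, with 28.0, 29.1 and 433.2, 14.9-fold higher. Its neighbour AT4G33720 was close to equal, with probe sets at 1529 and 1648 and at 1025 and 930.5 at 25 and 50 ppm.

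Lipid transfer and other 8-cysteine proteins, mostly secreted proteins, were lower more often than higher. Of 14 kept genes, 6 were lower, 2 higher and 6 within 2-fold, with a median log2 difference of -0.84 (-0.98 to -0.75 under quantile, loess and median scaling). Of the 6 lower, 1 passed the filter through the 25 ppm array alone, and of the 2 higher, 1 through the 50 ppm array alone. AT1G62510 gave 282.9, 258.5 and 31.6, 8.18-fold lower. AT4G22460 gave 322.9, 132.0 and 29.2, 4.52-fold lower.

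AT2G45180 had probe sets at 1069, 545.0 and 190.3 (2.86-fold) and at 667.0, 307.4 and 100.6 (3.06-fold). AT4G12545 gave 1057, 644.2 and 288.7, 2.23-fold. These and AT4G22460 were lower at each higher dose. AT4G22640 instead was highest at 25 ppm, with 182.6, 473.0 and 155.3, 3.05-fold, and its second probe set gave 171.4, 449.5 and 184.2, 2.44-fold.

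The higher members were AT4G22610, at 132.8, 74.4 and 423.5 (5.69-fold), and AT2G44290, at under 8, 10.3 and 115.0 (11.2-fold). A further gene of this kind, AT2G18370, which was not in the fixed family, gave 51.6, 132.1 and 934.9, 7.08-fold, and AT4G12360, likewise outside it, gave 103.6, 384.3 and 91.8, 4.19-fold lower. The family therefore held large differences in both directions.

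Genes of cold, drought and abscisic acid responses went both ways. Of 11 kept genes, 2 were higher and 2 lower. KIN2 had probe sets at 104.3, 260.7 and 1112 (4.27-fold) and at 150.4, 349.8 and 1015 (2.90-fold), higher at each dose. The dehydrin LTI30 gave 631.7, 295.5 and 608.8, 2.06-fold, with 25 ppm low.

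The dehydrin COR47 was lower, at 1321, 884.7 and 306.0 (2.89-fold) on one probe set and at 1784, 1297 and 674.9 (1.92-fold) on the other. DI21 gave 1495, 1841 and 736.3, 2.50-fold, and its second probe set gave 398.8, 433.3 and 184.3, 2.35-fold. LTI30 and COR47, of the same protein class, thus lay on opposite sides.

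Among regulators, STZ (ZAT10), a zinc finger repressor that many stresses induce, had probe sets at 106.4, 19.8 and 354.9 (17.9-fold) and at 108.7, 90.7 and 306.3 (3.38-fold). They differed in size because they disagreed at 25 ppm. WRKY29, a factor of the immune response, gave 99.7, 60.8 and 208.6, 3.43-fold, and WRKY42 gave 13.6, 38.5 and 17.4, 2.21-fold lower. The other 6 of 8 WRKY genes were within 2-fold, WRKY6 at 155.3 and 194.4 and WRKY53 at 26.6 and 25.6 at 25 and 50 ppm. Of 30 receptor-like kinases, 1 was higher and 0 were lower.

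Of 15 kept aspartyl, papain and subtilisin proteases, 3 were higher and 1 lower, too few to set the list apart from all named genes. AT4G16190, of the papain class, had probe sets at 416.0, 257.4 and 747.7 (2.90-fold) and at 381.8, 233.6 and 643.8 (2.76-fold). AT1G03230, an aspartyl protease relative, gave 155.2, 179.0 and 620.5, 3.47-fold, while its neighbour AT1G03220 gave 1644, 2044 and 1492. TPP2, a large cytosolic peptidase outside this list, gave 165.9, 16.5 and 155.9, 9.45-fold, with 25 ppm low. Of 6 ATG8 genes, which coat autophagosomes, 2 were higher: ATG8D at 97.0, 57.3 and 125.3 (2.19-fold) and ATG8B at 15.8, 9.1 and 41.6 (4.57-fold). ATG8B passed the filter through the 50 ppm array alone, and ATG8D was within 2-fold after quantile normalization and with an offset of 16.

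Further strong genes were lower at 50 ppm. AT1G12010, of the ACC oxidase family that makes ethylene, gave 971.5, 405.6 and 105.1, 3.86-fold. AT4G21250, of a sulfite exporter family, gave 53.2, 175.9 and 8.1, 21.7-fold. AT1G12080 gave 749.3, 759.7 and 182.7, 4.16-fold, and was low at 50 ppm only. AT2G41810 gave 310.2, 419.7 and 95.5, 4.39-fold. MAB1, a subunit of mitochondrial pyruvate dehydrogenase, gave 736.6, 1270 and 507.2, 2.50-fold. In MAB1 the 25 ppm array was the highest.

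The genes of protein synthesis and energy supply lay mostly just below zero. Of 45 kept ribosomal protein genes, 0 were higher and 1 lower, and 3 had a log2 difference above 0. Their median was -0.54, beside -0.26 for all probe sets with signals of 500 and over, both without further scaling. After loess the ribosomal median was -0.30, beside -0.03 for all kept probe sets. AT1G27400 was the lower one, at 817.0, 1237 and 597.4, 2.07-fold, and it was within 2-fold under quantile, loess and median scaling. Under loess and median scaling 1 ribosomal protein gene was higher and 0 were lower. The 10 kept genes of the vacuolar proton pump, which acidifies the vacuole, were within 2-fold with a median of -0.61 (-0.41 after loess). VHA-A3 gave 710.9, 861.2 and 446.2, and VHA-C3 gave 1709, 2387 and 1458. For 13 respiratory chain genes the median was -0.27. Tubulins and actins, 5 genes, were within 2-fold with a median of -0.31. Of 7 histone genes 1 was higher, the drought-linked linker histone HIS1-3 at 10.8, 10.4 and 53.4 (5.13-fold). HIS1-3 passed the filter through the 50 ppm array alone.

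**Figure D4:**
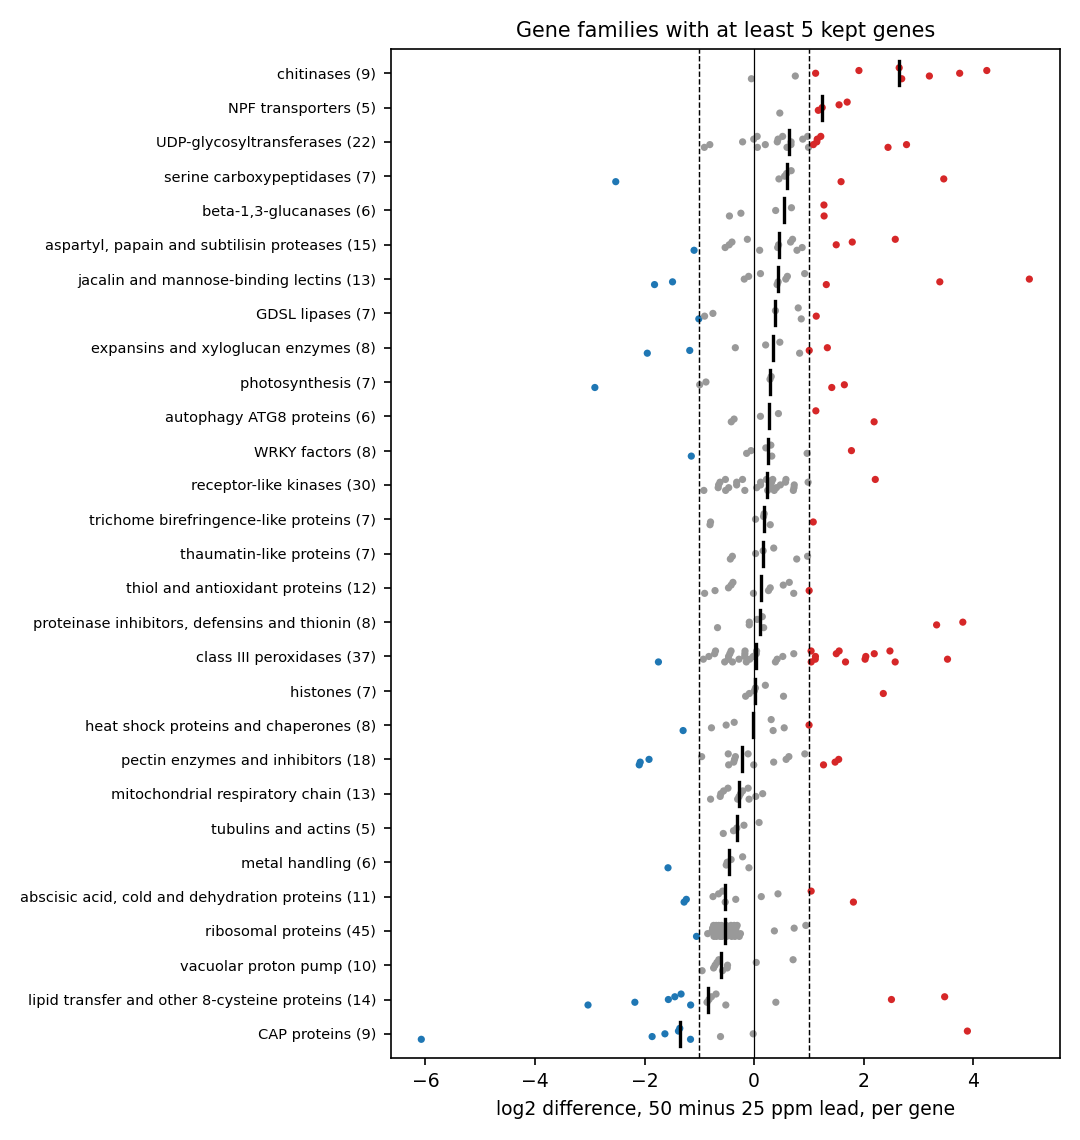
Each point is a gene, placed by its log2 difference between 50 and 25 ppm lead (horizontal axis), in families with at least 5 kept genes (vertical axis, number of genes in brackets). Red points are at least 2-fold higher, blue points at least 2-fold lower, and black bars are medians, from 2.65 for chitinases to -1.36 for CAP proteins.

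Some photosynthesis genes met the rule at weak root signals. LHB1B2 gave 87.6, 87.0 and 11.6 in roots, 7.50-fold lower at 50 ppm, beside 3060 and 3040.3 in leaves at 25 and 50 ppm. RCA (14.5, 8.8 and 27.6) and PSAE-1 (38.6, 20.9 and 55.9) were higher, by 3.14-fold and 2.67-fold. Probe sets of the same genes under the filter did not repeat this: the others for PSAE-1 were under 8 on both lead arrays, and that for LHB1B2 gave 9.9 and 9.3 at 25 and 50 ppm. With an offset of 16, RCA and PSAE-1 were within 2-fold. These levels were a small part of those in leaves. AT2G25510 gave 114.7, under 8 and 160.1 in roots, at least 20.0-fold, and 5044 and 3813 in leaves. Whether traces of shoot tissue have a part in these values was not tested.

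Among weak signals the largest differences were close to the floor. The carboxypeptidase-like gene scpl30 gave signals under 8 at 0 and 25 ppm and 88.3 at 50 ppm, at least 11.0-fold. Its relative scpl31 gave 72.2, 73.7 and 12.8, 5.76-fold lower. ICL, the isocitrate lyase of the glyoxylate cycle, had a signal under 8 at 0 and 50 ppm and 39.6 at 25 ppm. At the 2-fold line among strong signals, MSRB9 (log2 1.01) and GH9B13 (-1.01) were just inside, and AT4G01870 (0.99) and AT1G15270 (-0.97) just outside.

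Of 92 named genes with several kept probe sets, 16 were at least 2-fold apart on the same side by each of them, 65 by none and 11 by some. None had probe sets at least 2-fold apart on opposite sides. Of the 312 named probe sets that were 2-fold apart, 42 carry a name ending that marks probes shared with other transcripts, so their signals may hold relatives.

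In leaves the same probe sets had no common direction. Of the 533 higher in roots, 341 had a signal of at least 25 on 1 or both lead leaf arrays, and of those 26 were at least 2-fold higher in leaves at 50 ppm and 32 lower (7.62% and 9.38%). Of all 3646 probe sets measured in both organs, 156 were higher and 117 lower in leaves (4.28% and 3.21%). Of the 190 lower in roots, 91 were measured in leaves, with 4 higher and 5 lower. The probe sets higher in roots were thus apart in leaves more often than all probe sets, in both directions, and the difference between organs was not tested.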

How the data were processed

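Root and leaf RNA was labelled with biotin and hybridised to 1-colour Affymetrix arrays, per the labels' protocols. The deposited values are linear intensity signals, 1 per probe set and array. Their trimmed means near 100 show a scaling by the authors. Their software is not stated in the labels. No further scaling was applied. Array number limits the precision. All 8297 probe sets were read, 0 value columns were left out and 50 controls were set aside. Floor (8), filter (25) and threshold (2-fold) are those of the opening. A fold from a signal under 8 is a lower bound. Genes came from the platform annotation, updated through a RefSeq table of assembly TAIR10.1: 3784 probe sets named exactly 1 gene (3592 loci). A gene with several kept probe sets took their mean log2 difference.

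Members and lists were chosen with earlier results of these data known. The 46 word lists first fixed matched few genes, 13 of them none, since the table holds symbols and no descriptions. They were replaced by 35 families of loci from general knowledge, 567 loci with 379 kept. Genes were named when among the 25 largest or 10 strongest each way with a signal of at least 100, the 5 largest weaker ones, the 5 on each side of the 2-fold line, or in a family. Some genes, among them GSTF3, AT1G55450 and AT5G26290, were named outside this rule. Promoter motifs could not be searched without sequences. The code was tested on simulated data, made by putting known folds on 25 ppm signals that were raised above the floor. That test did not cover 25 ppm signals under the floor. Python 3.11.15, pandas 2.3.3, numpy 2.4.6 and statsmodels 0.14.6 were used. Alternatives were other scalings, floors, an offset, filters and fold thresholds.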

Additional observations from a re-analysis of the deposited data

Results flagged for a closer look

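For 5 named genes, signals at 50 ppm were 2-fold or more above those at 25 ppm in roots, and 2-fold or more below them in leaves. Each had a signal of at least 100 on 1 or both lead arrays of each organ. How many named genes met this signal rule was not counted. Of all probe sets higher in roots and measured in leaves, 9.38% were lower and 7.62% higher in leaves. Over all probe sets measured in both organs these shares were 3.21% and 4.28%. With 1 array per group, the difference between organs was not tested. The chitinase AT4G01700 stood at 132.5 and 499.8 in roots and 186.2 and 63.1 in leaves at 25 and 50 ppm, so its log2 differences lay 3.48 apart. AT5G44286 gave 413.4 and 830.5 in roots and 456.8 and 100.6 in leaves, 3.19 apart. The aspartyl protease relative AT1G03230 gave 179.0 and 620.5 in roots and 216.3 and 93.6 in leaves, 3.00 apart. The dehydrin LTI30 gave 295.5 and 608.8 in roots and 235.1 and 78.1 in leaves, 2.63 apart. AT1G55450 gave 67.1 and 142.6 in roots and 635.2 and 299.6 in leaves, 2.17 apart. In roots the log2 differences of AT5G44286 (1.01), LTI30 (1.04) and AT1G55450 (1.09) were close to the 2-fold line. Groups of 1 array allow no search for outlying samples.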

How the results depend on the processing

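The counts of 533 higher and 190 lower probe sets stayed within 1.5 times under trimmed mean, quantile, median and loess scaling, floors at 4 and 16, and no filter. An offset of 16 in place of the floor gave 334 and 121, a filter at 100 gave 262 and 103, a threshold of 1.5-fold gave 1020 and 635, and one of 3-fold gave 240 and 68. The share that was higher, 73.7%, was 61.0% after quantile, 62.4% after loess and 79.6% after median scaling, 61.6% at 1.5-fold and 77.9% at 3-fold. The counts under the filter and the thresholds differ by construction. For the others the cause was not tested. Alternatives were run for 147 named probe sets that were 2-fold apart, those chosen by size or strength and those in families. Of 1280 values, 1194 stayed 2-fold apart, 86 kept their direction only and 0 reversed. Of the 86, 35 were with the offset, 21 after loess and 14 after quantile normalization. They came from 41 probe sets, and 106 probe sets never came within 2-fold. Of 260 family medians under alternatives, 245 kept their sign, and the other 15 became 0 or changed sign. No paired analysis was possible because each group has 1 array, and for the same reason leaving out a replicate was not possible. Background on the 50 ppm array was 1.97 times that on the 25 ppm array, which limits what weak signals show.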

Other observations

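Several of the genes that were lowest at 50 ppm lie close together on chromosome 5, which was noticed after their values were seen. Between AT5G26010 and AT5G26360 the RefSeq table lists 46 genes, of which 10 were kept. Of those, 4 were at least 2-fold lower at 50 ppm and 0 higher, beside 4.64% and 10.6% of all named genes. The ends of the stretch were set with the values known, and AT5G26010 at 1 end is among the 4. The count is thus no test of a cluster. AT5G26130 gave 324.7, 539.9 and under 8 at 0, 25 and 50 ppm. AT5G26320, a TRAF-like gene, gave 300.1, 525.3 and 73.7, and its relative AT5G26300 gave 98.8, 243.4 and 39.6. AT5G26010 gave 67.1, 57.1 and 24.0. The other 6 kept genes were within 2-fold: AT5G26290 gave 28.3, 26.0 and 41.6, and UGT72E3, an enzyme that glucosylates lignin precursors, gave 63.6, 94.1 and 150.3.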
